A study of Homo sapiens with 6 samples.

Results

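The hypoxia-inducible factor (HIF) system was described here through 10 genes, namely the HIF subunits HIF1A, EPAS1 and ARNT, the oxygen sensors EGLN1, EGLN2 and EGLN3, the recognition protein VHL, the growth factors VEGFA and VEGFB, and the carbonic anhydrase CA9. They were chosen by gene symbol, and each matched 1 row of the 48114 in the authors' table. Transcripts had been sequenced in TC-71 cells, a cell line from Ewing sarcoma labelled as wild type. The tested cultures were kept for 16 h with BEZ235, a compound that blocks both PI3K, a lipid kinase, and mTOR, a kinase that controls growth, and the control cultures for the same time with its solvent dimethyl sulfoxide (DMSO), with 3 biological replicates in each group. The labels name neither the dose of BEZ235 nor a low-oxygen treatment, and all libraries come from this 1 cell line.

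HIF is a pair of proteins that binds DNA and raises transcription of genes for oxygen supply, glucose use and pH control when oxygen is scarce. Its alpha subunit, encoded by HIF1A or EPAS1, is made continuously, but in the presence of oxygen the EGLN enzymes hydroxylate it, VHL then binds it, and the proteasome destroys it. When oxygen is low the alpha subunit escapes, pairs with ARNT and binds the core letters ACGTG or GCGTG near its targets, among them VEGFA, CA9 and EGLN3. The level of HIF alpha is thus set largely in the protein, and mTOR signalling is known to promote its translation; the present data hold transcripts and no proteins.

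The short stretches upstream of the members' starts are shown because the members that fell most include known HIF targets. RefSeq windows of 250 bases upstream of a start (GRCh38.p14) were found for 8 of the 10 members, with a second window each for HIF1A and EGLN2. VEGFA and VHL had no window and were not searched. Of these 10 windows, 6 held ACGTG or GCGTG on either strand, each in a different member, against 43.2% of all 35116 such windows. The core ACGTG alone occurred in 18.5% of all windows and GCGTG in 32.2%; the longer CACGTG, which contains ACGTG on both strands, occurred in 6.34%. Below, capitals mark these cores, and each stretch is read 5′ to 3′ on the gene's strand. The sites of CA9 (chr9:35673898-35673927, plus strand), EGLN1 (chr1:231422288-231422317, minus strand), EGLN2 (chr19:40799131-40799160, plus strand) and VEGFB (chr11:64234511-64234540, plus strand) are given as 30 bases:
CA9: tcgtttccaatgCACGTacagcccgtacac
EGLN1: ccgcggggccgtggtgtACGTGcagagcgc
EGLN2: cggggcgcggtCACGTGcccaccgggcgag
VEGFB: ccggtggggagcGCGTGtctgggtcacatg
The core of CA9 lies on the opposite strand, 13 bases before the start, and that of EGLN1 8 bases before it. Both are upstream of the RefSeq start but inside the authors' row of the gene, and the whole EGLN1 window lies in GENCODE v29 exons. The pair in EGLN2 is a single CACGTG. The upstream windows of both HIF alpha genes and of EGLN3, cut where a GENCODE v29 exon of the gene begins, are EPAS1 (chr2:46297157-46297401, plus strand), HIF1A (chr14:61695263-61695512, plus strand) and EGLN3 (chr14:33951082-33951324, minus strand):
EPAS1: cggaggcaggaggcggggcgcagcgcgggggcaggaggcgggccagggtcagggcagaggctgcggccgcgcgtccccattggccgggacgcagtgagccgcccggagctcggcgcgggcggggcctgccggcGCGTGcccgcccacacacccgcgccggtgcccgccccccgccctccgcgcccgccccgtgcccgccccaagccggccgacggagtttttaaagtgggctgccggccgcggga
HIF1A: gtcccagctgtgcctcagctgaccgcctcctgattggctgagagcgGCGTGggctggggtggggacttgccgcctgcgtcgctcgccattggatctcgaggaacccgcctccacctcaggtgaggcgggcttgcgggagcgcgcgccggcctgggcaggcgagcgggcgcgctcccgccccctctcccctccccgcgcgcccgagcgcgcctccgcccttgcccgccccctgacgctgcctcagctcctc
EGLN3: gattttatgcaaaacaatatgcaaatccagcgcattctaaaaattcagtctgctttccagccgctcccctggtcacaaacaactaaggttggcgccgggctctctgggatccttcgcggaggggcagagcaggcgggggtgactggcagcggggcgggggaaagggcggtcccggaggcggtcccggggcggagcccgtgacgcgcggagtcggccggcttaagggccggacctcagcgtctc
EPAS1 and HIF1A each hold 1 GCGTG, whereas these letters and ACGTG are absent from the EGLN3 window. The cores stand upstream of the RefSeq starts of genes that fell steeply (CA9, EPAS1), fell slightly (HIF1A, EGLN1, EGLN2) and rose (VEGFB). Genes whose windows held no core also fell, EGLN3 steeply and ARNT slightly. Of the 250 bases of the ARNT window, 169 lie in GENCODE v29 exons. Sequence outside these short windows was not searched, so a window with no core does not show that a gene lacks a HIF site.

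Values are normalized read counts, as the authors deposited them; 1 read was worth 0.835 to 1.16 of these units. Between 184790722 and 233767211 reads per library could be recovered, so a gene with 0 reads has a limit of 3 reads, or 2.50 to 3.47 normalized counts. Log2 values of libraries of the same group had a Pearson's r across genes between 0.982 and 0.987, and those of different groups between 0.927 and 0.939; no library was a copy of another. All 10 Ewing sarcoma markers examined passed the filter on low counts given below. By the test given below 5 rose and 3 fell, with log2 fold changes from -1.11 (NR0B1) to 1.26 (NKX2-2) and a median of 0.034. Over all rows tested, 33.1% rose and 33.2% fell. The summed level of these markers was 361836 to 376403 normalized counts in BEZ235 and 444251 to 489167 in DMSO libraries, with CD99 the largest part. Of 10 endothelial markers 6, among them PECAM1, VWF, CDH5, TEK and the VEGF receptor KDR, stayed under that filter. Of the 4 tested, 2 rose (ESAM and PLVAP) and 0 fell. ESAM was at 234 ± 44.7 in BEZ235 and 106 ± 14.2 normalized counts in DMSO cells (SD, n = 3 each). CLDN5, the most abundant, was at 1209 ± 99.8 in BEZ235 and 1234 ± 194 in DMSO cells. The summed level over all 10 was 1583 to 1762 in BEZ235 and 1287 to 1685 in DMSO libraries. Of 9 blood markers 5 were tested (3 rose, 1 fell), with a summed level of 3041 to 3285 in BEZ235 and 2853 to 4686 in DMSO libraries. HBB and CD3E were at 0, but CD68 was at 1458 ± 32.3 in BEZ235 and 2886 ± 619 in DMSO cells (SD, n = 3 each). HBA1 rose to 867 ± 41.2 in BEZ235, against 558 ± 210 in DMSO cells, and HBA2 to 785 ± 61.7 in BEZ235, against 535 ± 197 in DMSO cells. Both calls were lost under some of the alternatives given below, with an adjusted p of up to 0.103 for HBA1 and 0.141 for HBA2. So were the rises of PAX7 (up to 0.245), EWSR1 (0.557), PLVAP (0.152), LYZ (0.113) and the fibroblast marker DCN (0.254). Of 7 epithelial markers 5 were tested (1 rose, 1 fell; 1290.3 to 1545 in BEZ235 and 1945 to 2060.0 in DMSO libraries), with KRT19 and KRT5 at 0 but KRT8 at 638 ± 37.7 in BEZ235 and 1263 ± 46.8 in DMSO cells. EPCAM was the 1 that rose, to 115 ± 23.0 in BEZ235, against 55.3 ± 13.9 in DMSO cells. Of 8 fibroblast markers 7 were tested (3 rose, 3 fell; 41021 to 42874 in BEZ235 and 34890.5 to 36127 in DMSO libraries), led by COL3A1 at 29032 ± 1515 in BEZ235 and 20658 ± 734 in DMSO cells. The 3 that fell were COL1A1, LUM and THY1, with log2 fold changes of -0.73, -2.65 and -1.36. Besides COL3A1, DCN and PDGFRB rose, by 0.25 and 1.43. The part of these shifts in the results was not tested.

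Fold changes below are differences of log2(normalized count + 1), BEZ235 minus DMSO, from limma, with p-values adjusted by Benjamini-Hochberg over the 23923 rows that had at least 10 normalized counts in at least 3 libraries; 0.05 was the threshold. All 10 members passed the filter. With BEZ235, 9 of them fell and 1, VEGFB, rose. This count has to be read against the whole table, where 66.3% of rows were called, 33.2% as lower and 33.1% as higher. Falls of at least 2-fold were seen in 4 members, CA9, EPAS1, VEGFA and EGLN3, and in 13.6% of all rows; the other 5 falls were of 1.23-fold or less. The median log2 fold change of the members was -0.29, against 0 within rounding (-0.00085) over all rows. The groups did not overlap for 9 members, 8 of them lower and VEGFB higher with BEZ235, against 70.9% of all rows, 35.4% as lower and 35.5% as higher. Counts of called members varied little with the method. On the recovered reads edgeR called 9 members and DESeq2 10, against 65.8% and 65.7% of all rows; the lower calls were 32.7% and 32.9% and the higher calls 33.1% and 32.8%. Total-count scaling called 10 members and 64.4% of rows (36.3% lower, 28.1% higher), and quantile normalization 8 members and 66.9% of rows (31.8% lower, 35.1% higher).

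**Figure D1:**
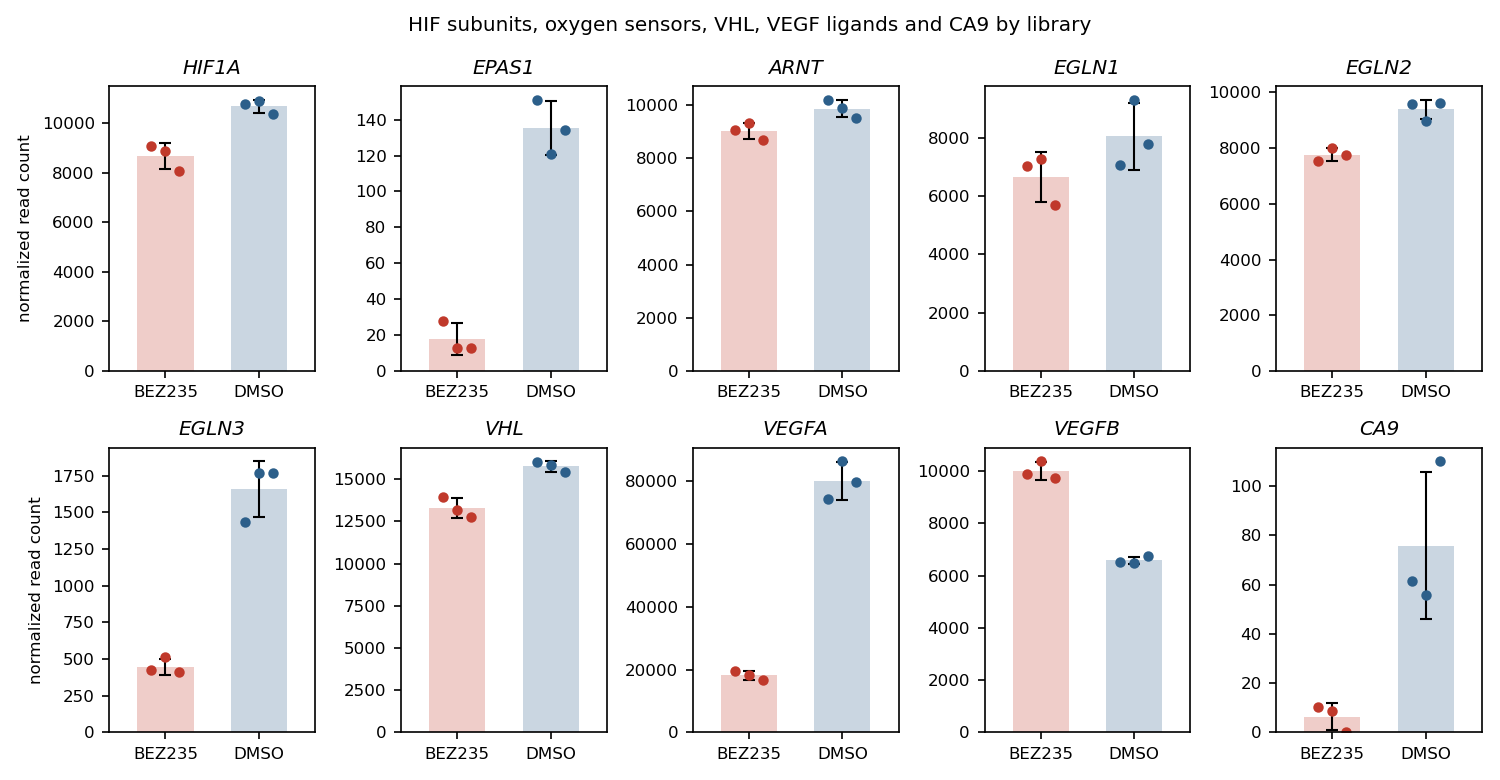
Normalized read counts (y axis, linear, from 0) of the 10 genes in each library, BEZ235 in red and DMSO in blue; points are libraries, bars means and error bars SD (n = 3). The groups are apart for 9 genes, and those of EGLN1 overlap.

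EPAS1, which encodes the alpha subunit HIF-2 alpha (chromosome 2, 46297407 to 46386699, hg38), was scarce in these cells and fell further. It had 27.80, 12.83 and 12.68 normalized counts in the BEZ235 libraries, or 24, 13 and 14 reads, against 151.23, 120.86 and 134.37 in the DMSO libraries, or 140, 117 and 161 reads. Every BEZ235 library lay far below the lowest DMSO library. The log2 fold change was -2.95 (SE 0.36, 95% interval -3.74 to -2.16, limma adjusted p = 2.56e-05), a fall of 7.72-fold, and 1.80% of tested rows had a lower value. An unnamed row of 1743 bases that lies wholly inside EPAS1 averaged 1.16 normalized counts in BEZ235 and 18.8 in DMSO libraries, so reads could be shared between them.

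HIF1A, the gene of HIF-1 alpha (chromosome 14, 61695513 to 61748259), was abundant in both groups and changed little. Its normalized counts were 9076, 8895 and 8075 in BEZ235 libraries, against 10758, 10913 and 10390.55 in DMSO libraries. The groups did not overlap, and the log2 fold change was -0.30 (SE 0.058, limma adjusted p = 0.000788). The antisense genes HIF1A-AS1 and HIF1A-AS2 overlap the HIF1A row, and no source used here gives the strand of the counts, so reads of the pairs cannot be told apart. HIF1A-AS2 averaged 1790 ± 114 in BEZ235 and 2317 ± 142 normalized counts in DMSO libraries (SD, n = 3 each), with a log2 fold change of -0.37 (limma adjusted p = 0.0011). HIF1A-AS1 was at 264 ± 22.3 in BEZ235 and 312 ± 21.3 in DMSO libraries, with a log2 fold change of -0.24 that was not called (limma adjusted p = 0.135).

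ARNT, the common partner of both alpha subunits (chromosome 1, 150809713 to 150876769), had 9064, 9313 and 8689.9 normalized counts in BEZ235 libraries, against 10193, 9896 and 9520.08 in DMSO libraries. These groups were adjacent without overlap. The log2 fold change of -0.13 (SE 0.053) was past the threshold by a narrow margin (limma adjusted p = 0.049), and the adjusted p ran from 0.00335 to 0.136 over the alternatives. The call was lost when any 1 of the 6 libraries was left out. It was also lost with TMM scaling, quantile normalization, no filter, limma with no trend, edgeR and the replicate block. The alpha genes differed in their response. Within a library, the log2 ratio of EPAS1 to HIF1A was -8.30, -9.33 and -9.21 in BEZ235 and -6.14, -6.48 and -6.26 in DMSO cells. This difference was -2.65, and -2.13 with a pseudocount of 10; the exact two-sided permutation test gave p = 0.1, the smallest that 3 libraries against 3 allow, and the same value after adjustment over the 3 ratios examined.

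Among the oxygen sensors only EGLN3 changed by 2-fold or more. EGLN3 (PHD3; chromosome 14, 33924217 to 33951078), a prolyl hydroxylase whose gene is itself a HIF target, had 426.20, 511.38 and 409.53 normalized counts in BEZ235 libraries, against 1437, 1772 and 1767 in DMSO libraries. All 3 BEZ235 libraries lay well below the DMSO libraries. Its log2 fold change was -1.88 (SE 0.12, 95% interval -2.14 to -1.62, limma adjusted p = 1.28e-07), a fall of 3.69-fold that held with every library left out in turn (-1.98 to -1.82).

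EGLN1 (PHD2; chromosome 1, 231363755 to 231425044), the main sensor in most cells under normal oxygen, had 7020, 7289 and 5689.98 normalized counts in BEZ235 libraries, against 7072, 9316 and 7778 in DMSO libraries. It was the one member whose groups overlapped, since BEZ235 replicate 2 exceeded DMSO replicate 1. The log2 fold change was -0.27 (SE 0.11, limma adjusted p = 0.0479), with an adjusted p of 0.00938 to 0.21 over the alternatives. The call did not hold without BEZ235 replicate 1 (adjusted p = 0.0531), BEZ235 replicate 3 (0.21), DMSO replicate 2 (0.146) or DMSO replicate 3 (0.0788). It was also lost with TMM scaling (0.0506), quantile normalization (0.0604), a pseudocount of 0.5 (0.0506) and limma with no trend (0.163). EGLN2 (PHD1; chromosome 19, 40799187 to 40808434) had 7519.9, 8017 and 7768 normalized counts in BEZ235 libraries, against 9580.39, 8985 and 9606 in DMSO libraries. These groups were apart, and the log2 fold change was -0.27 (SE 0.053, limma adjusted p = 0.000878). The log2 ratio of EGLN3 to EGLN1 within a library was -4.04, -3.83 and -3.79 in BEZ235 and -2.30, -2.39 and -2.14 in DMSO cells, a difference of -1.61 (exact two-sided permutation p = 0.1, the smallest possible; 0.1 after adjustment over the 3 ratios).

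VHL, which recognizes hydroxylated HIF alpha for degradation (chromosome 3, 10141635 to 10153667), had 13969, 13158 and 12783 normalized counts in BEZ235 libraries, against 16005, 15867 and 15401 in DMSO libraries. All BEZ235 libraries were below all DMSO libraries by a small margin, and the log2 fold change was -0.25 (SE 0.052, 95% interval -0.36 to -0.13, limma adjusted p = 0.00154).

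VEGFA, the growth factor that drives blood vessel formation (chromosome 6, 43770209 to 43786487), was the most abundant member in DMSO cells and lost most of its transcript. Its normalized counts were 19460.48, 18223 and 16626 in BEZ235 libraries, against 74140.25, 86266 and 79709 in DMSO libraries. No BEZ235 library came near the DMSO range. The log2 fold change of -2.14 (SE 0.072, 95% interval -2.30 to -1.98, limma adjusted p = 1.61e-09) amounts to 4.42-fold; 4.33% of tested rows had a lower one.

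VEGFB (chromosome 11, 64234584 to 64239264), a related ligand that binds the receptor FLT1 but not KDR, went the other way. It had 9903, 10388 and 9739 normalized counts in BEZ235 libraries, against 6522, 6479.8 and 6743 in DMSO libraries. Each BEZ235 library was above each DMSO library, and the log2 fold change was 0.60 (SE 0.051, 95% interval 0.49 to 0.72, limma adjusted p = 1.43e-06), or 1.52-fold. The log2 ratio of VEGFA to VEGFB was 0.97, 0.81 and 0.77 in BEZ235 libraries, against 3.51, 3.73 and 3.56 in DMSO libraries. It differed by -2.75, or 6.72-fold (exact two-sided permutation p = 0.1, the smallest possible; 0.1 after adjustment over the 3 ratios).

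CA9, a carbonic anhydrase of the cell surface that is a widely used marker of HIF activity (chromosome 9, 35673856 to 35681159), was scarce in DMSO cells and near the limit of detection with BEZ235. It had 10.42, 8.88 and 0 normalized counts in BEZ235 libraries, or 9, 9 and 0 reads, against 61.57, 55.78 and 110.16 in DMSO libraries, or 57, 54 and 132 reads. The groups were far apart, but 1 library in each deviated from its pair, and the 0 reads in BEZ235 replicate 3 allow up to 2.72 normalized counts. The log2 fold change was -3.92 (SE 0.85, 95% interval -5.81 to -2.04, limma adjusted p = 0.00187). Leaving out BEZ235 replicate 3 gave -2.79, leaving out BEZ235 replicate 1 gave -4.54, a pseudocount of 10 gave -2.40, and edgeR and DESeq2 gave -3.58 and -3.60, so its size is less certain than its direction, which held under all alternatives.

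**Figure D2:**
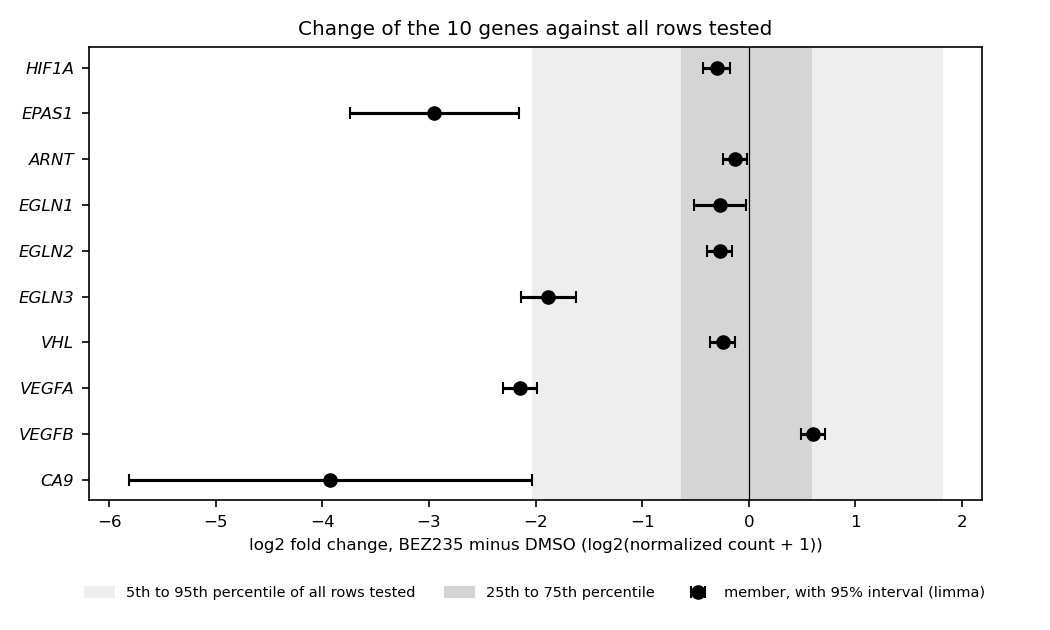
Log2 fold change (x axis, BEZ235 minus DMSO) of each member with its 95% interval from limma; the shaded bands give the 5th to 95th and 25th to 75th percentiles of all 23923 rows tested. CA9, EPAS1 and VEGFA lie below the 5th percentile of -2.02, EGLN3 lies just above it, and 5 members lie between -0.30 and -0.13.

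Levels of different genes were compared per kilobase of exon (union of exons of protein-coding transcripts, GENCODE v29, hg38). In BEZ235 cells the order of normalized counts per kilobase was VEGFB at 7254 ± 244, VEGFA at 4804 ± 377, VHL at 3560 ± 162, EGLN2 at 2570 ± 82.3, HIF1A at 2040 ± 125, ARNT at 1825 ± 63.5, EGLN1 at 939 ± 121, EGLN3 at 92.2 ± 11.2, CA9 at 3.98 ± 3.48 and EPAS1 at 3.44 ± 1.68 (SD, n = 3 each). In DMSO cells VEGFA came first at 21242 ± 1611, before VEGFB at 4769 ± 103 and VHL at 4217 ± 84.7, and EPAS1 last at 26.2 ± 2.95, behind CA9 at 46.9 ± 18.5; the 5 genes from EGLN2 to EGLN3 kept their places. Thus VEGFA and VEGFB changed places at the top. Neighbours in these orders did not overlap between libraries, except CA9 and EPAS1 in BEZ235 cells.

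The other VEGF ligands and receptors moved in both directions: of 8 genes listed, 7 passed the filter, 2 rose and 3 fell. Among all rows 33.1% were called as higher and 33.2% as lower. The median of the list on the log2 scale was -0.44. PGF, placental growth factor, which binds FLT1 as VEGFB does, rose most. It had 41286, 50292 and 31043 normalized counts in BEZ235 libraries, against 6576, 6704 and 5907 in DMSO libraries. All BEZ235 libraries far exceeded the highest DMSO library, and the log2 fold change was 2.65 (SE 0.14, limma adjusted p = 3.24e-08); an unnamed row of 1643 bases overlaps PGF. Per kilobase, PGF was at 19073 ± 4494 in BEZ235 and 2985 ± 199.7 in DMSO cells, so that PGF led the VEGF ligands in BEZ235 cells, where VEGFA led in DMSO cells; this ligand-wide order was examined after the values of PGF had been seen. VEGFC, a ligand of lymphatic vessel growth, fell to 43.7 ± 9.72 in BEZ235, against 158 ± 23.1 normalized counts in DMSO cells.

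Of the receptors, FLT4, to which VEGFC binds, rose to 1817 ± 50.9 in BEZ235 cells, against 994 ± 15.8 in DMSO cells, a log2 fold change of 0.87 (SE 0.07). The co-receptors NRP1 and NRP2 both fell. NRP1 was at 970.3 ± 18.2 in BEZ235 and 1860.3 ± 50.4 normalized counts in DMSO cells, a log2 fold change of -0.94 (SE 0.07). NRP2 was at 75.7 ± 13.9 in BEZ235 and 379 ± 70.3 in DMSO cells, a log2 fold change of -2.31 (SE 0.20). FLT1 was low, at 60.3 ± 11.9 in BEZ235 and 59.6 ± 16.1 in DMSO cells, and was not called (limma adjusted p = 0.927). KDR, the chief receptor of VEGFA in endothelium, had 0 normalized counts in each BEZ235 library and 3.24, 0 and 6.68 in the DMSO libraries, so it was at or near the limit of detection.

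**Figure D3:**
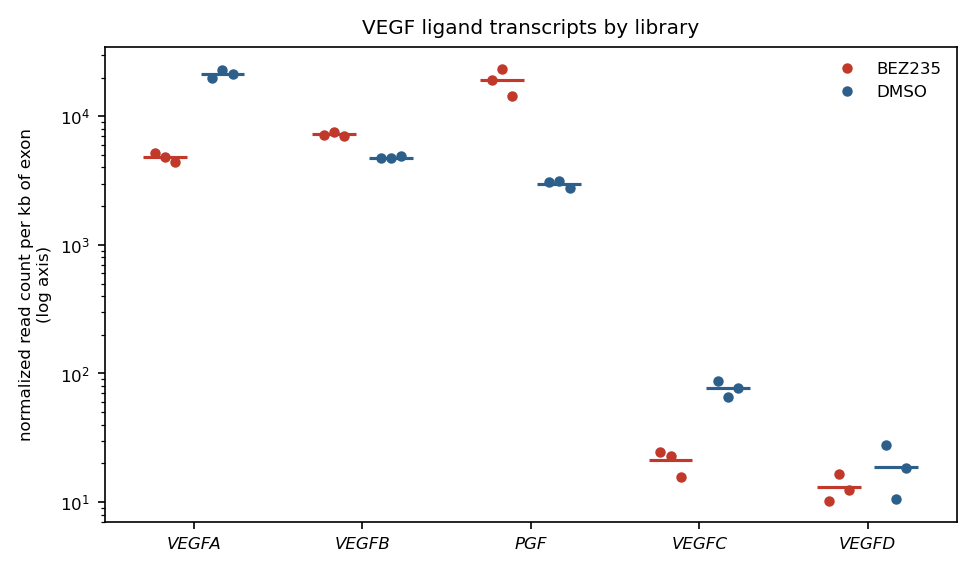
Normalized read counts per kilobase of exon (y axis, log scale) of the 5 VEGF ligand genes in each library, BEZ235 in red and DMSO in blue; points are libraries and lines means (n = 3). VEGFA and VEGFC are lower and VEGFB and PGF higher in all BEZ235 libraries, and the groups of VEGFD overlap.

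Genes that regulate the HIF proteins were split. Of 20 listed, all were tested, 8 rose, 8 fell and 4 were not called, beside 33.1% of all rows called as higher and 33.2% as lower. Their median was -0.03 on the log2 scale. All 4 listed partners of VHL in its ubiquitin ligase fell, a direction called for 33.2% of all rows. ELOC fell most, at 8895 ± 430.1 in BEZ235 and 18158 ± 141 normalized counts in DMSO cells (log2 fold change -1.03, SE 0.052, limma adjusted p = 2.64e-08). The falls of CUL2, RBX1 and ELOB were of 0.31, 0.20 and 0.17 on the log2 scale. EP300, a coactivator that HIF recruits, rose to 14765 ± 1399 in BEZ235 cells, against 9838 ± 576 in DMSO cells, and the related CREBBP rose by 0.68 (SE 0.13). HSP90AA1, a chaperone that holds HIF-1 alpha, RACK1, a ribosomal scaffold reported to promote its oxygen-independent degradation, and OS9, a lectin of the endoplasmic reticulum, had log2 fold changes of 0.47, 0.75 and 0.79. The paralog HIF3A also rose, to 162 ± 9.25 in BEZ235, against 86.0 ± 11.5 in DMSO cells; its row lies inside those of CALM3 and PPP5C, with which reads could be shared. ARNT2, a paralog of ARNT, was called as higher (limma adjusted p = 0.0216), with an adjusted p of up to 0.0978 over the alternatives.

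HIF1AN and CITED2, which restrain HIF through EP300, were not called. HIF1AN, the asparagine hydroxylase that keeps EP300 off HIF alpha, was at 3110 ± 161 in BEZ235 and 3367 ± 213 normalized counts in DMSO cells (limma adjusted p = 0.165), and CITED2, which competes with HIF for EP300, at 160178 ± 7089 in BEZ235 and 153286 ± 9317 in DMSO cells (limma adjusted p = 0.405). HIGD1A, a mitochondrial protein induced by hypoxia, fell to 18768 ± 649 in BEZ235, against 41407 ± 3511 in DMSO cells, and the SUMO protease SENP1 and the ubiquitin ligase SIAH1 had log2 fold changes of -0.48 and -0.60; their rows overlap those of PFKM and LONP2, with which reads could be shared.

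Known HIF targets outside glycolysis fell or were not called. Of 30 listed, 28 were tested, 15 fell, 0 rose and 13 were not called by limma. Of the falls 7 were at least 2-fold, and the median log2 fold change was -0.38. These counts stand beside 66.3% of all rows called, 33.2% as lower and 33.1% as higher, and 13.6% at least 2-fold lower. VLDLR, a lipoprotein receptor, fell to 390.4 ± 34.9 in BEZ235, against 6971 ± 135 normalized counts in DMSO cells, and P4HA2, a collagen prolyl hydroxylase, to 947 ± 165 in BEZ235, against 10548 ± 539.5 in DMSO cells. STC2, a secreted glycoprotein, fell to 506 ± 10.9 in BEZ235, against 3700 ± 370 in DMSO cells, and ERO1A, an oxidase of the endoplasmic reticulum, to 4139 ± 252 in BEZ235, against 10989 ± 294 in DMSO cells. DDIT4, an inhibitor of mTOR signalling, had a log2 fold change of -4.09 (SE 0.30). It was at 13173, 13872 and 5138 normalized counts in BEZ235 libraries, against 141413, 194863 and 168596 in DMSO libraries. BEZ235 replicate 3 thus lay apart. It was also the lowest BEZ235 library for BHLHE40, P4HA1 and MIR210HG, but the highest for LOX and SLC6A6, and the cause was not tested. VLDLR and P4HA2 overlap the antisense rows VLDLR-AS1 and P4HA2-AS1, with which reads could be shared. Over all 6 libraries these rows averaged 1371 and 347 normalized counts, against 3681 for VLDLR and 5747 for P4HA2. The mean of VLDLR-AS1 exceeds the 390.4 of VLDLR in BEZ235 cells.

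Several genes commonly used to report hypoxia were in the group not called. ADM, adrenomedullin, was at 513 ± 61.1 in BEZ235 and 527 ± 58.7 normalized counts in DMSO cells (95% interval of the log2 fold change -0.32 to 0.24, limma adjusted p = 0.794), and NDRG1 at 923 ± 129 in BEZ235 and 1298 ± 370 in DMSO cells (adjusted p = 0.0569; 0.000127 without DMSO replicate 2). BNIP3, a mitophagy receptor, was at 33485 ± 8718 in BEZ235 and 25773 ± 292 in DMSO cells. BEZ235 replicate 3 lay apart at 23516, with the other BEZ235 libraries at 39681 and 37259; the adjusted p was 0.0708, and 2.18e-05 without that library, where the log2 fold change was 0.58 in place of 0.34. CA12, a surface carbonic anhydrase like CA9, was at 100.3 ± 9.28 in BEZ235 and 137 ± 23.7 in DMSO cells (limma adjusted p = 0.083; 0.0396 without DMSO replicate 2).

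Glycolytic HIF targets changed by less. Of 18 tested, 9 fell and 4 rose, beside 33.2% of all rows called as lower and 33.1% as higher. In each direction 1 changed at least 2-fold, beside 13.6% of all rows lower and 12.7% higher. The median over the list was -0.24 on the log2 scale. SLC2A3, a glucose transporter, fell by 1.57 (SE 0.079) on the log2 scale, ENO2 by 0.84, HK2, a hexokinase, by 0.81 and TPI1 by 0.43. PFKFB4, which makes a regulator of phosphofructokinase, rose to 1361 ± 488 in BEZ235, against 564 ± 48.4 normalized counts in DMSO cells. BEZ235 replicate 3 lay apart at 798, with the other BEZ235 libraries at 1618 and 1665. That library was also the lowest BEZ235 library for SLC2A1, LDHA, ALDOC and PDK1, though not for SLC16A3. PFKL, ALDOA and GAPDH had log2 fold changes of 0.25, 0.20 and 0.34; the call was lost for GAPDH with quantile normalization (adjusted p = 0.356), for PFKL with total-count scaling (0.0697) and for ALDOA under 8 alternatives (up to 0.214). The GAPDH row spans several other genes, and the ALDOA row lies inside another row. The glucose transporter SLC2A1 and lactate dehydrogenase LDHA were not called: SLC2A1 was at 2788 ± 661 in BEZ235 and 3451 ± 697 in DMSO cells (limma adjusted p = 0.132; 0.0319 without DMSO replicate 1 and 0.0354 with a replicate block) and LDHA at 124874 ± 20711 in BEZ235 and 133386 ± 10494 in DMSO cells (limma adjusted p = 0.416).

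**Figure D4:**
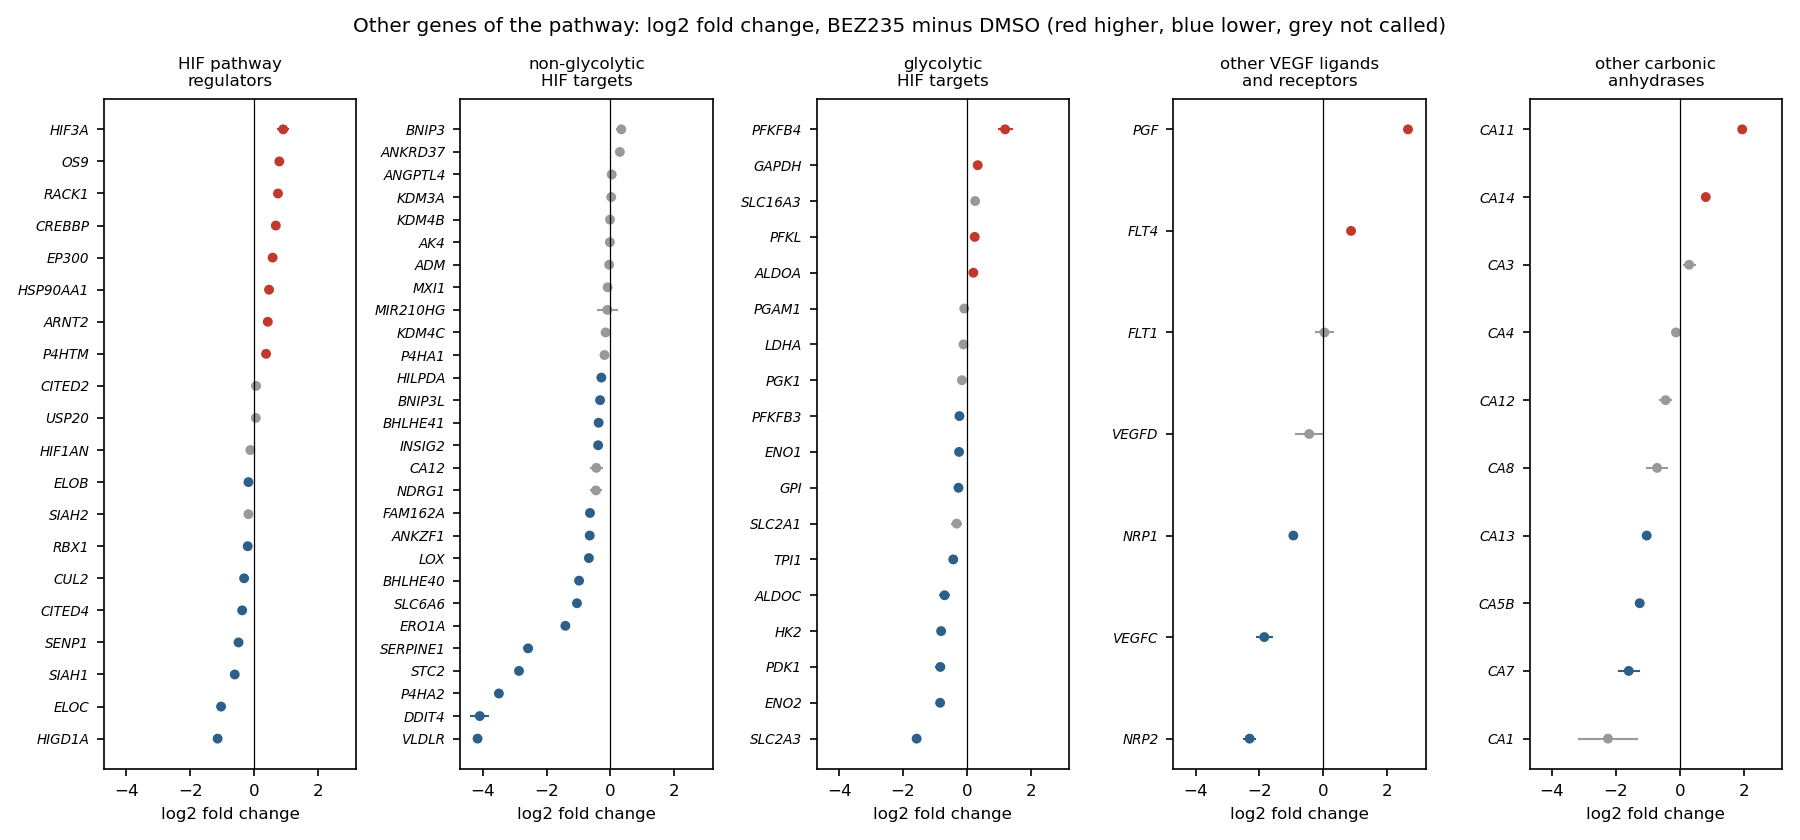
Log2 fold change (x axis, BEZ235 minus DMSO; lines give the SE from limma) of every tested gene in 5 lists related to HIF and VEGF; red is called as higher, blue as lower and grey not called at an adjusted p of 0.05. Non-glycolytic HIF targets extend from 0.34 for BNIP3 down to -4.16 for VLDLR with no gene in red, whereas each other list has both colours.

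The other carbonic anhydrases did not move as a family. Of 14 listed, 10 were tested, 2 rose and 3 fell, beside 33.1% of all rows called as higher and 33.2% as lower. The median was -0.57 on the log2 scale. CA14, a membrane enzyme, rose by 0.81 (SE 0.091) on the log2 scale, and the mitochondrial CA5B, the cytosolic CA13 and CA7 had log2 fold changes of -1.25, -1.03 and -1.60. CA11 was at 10015 ± 680.2 in BEZ235 and 2583 ± 178 normalized counts in DMSO cells, but its row lies within that of FTL, an abundant gene with which reads could be shared, as CA7 nearly lies within an unnamed row.

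For the 3 members with the largest changes, the rows with the most similar course over the 6 libraries were found by Euclidean distance of centred log2 values among 18083 other rows with 1 symbol. For VEGFA these were HMGB2, ORC6 and YARS1, at distances of 0.058, 0.09 and 0.10. HMGB2, a chromatin protein, was at 32375.45 ± 2733 in BEZ235 and 139534 ± 10074 normalized counts in DMSO cells. The rows closest to EPAS1 were PPP1R16B, H3Y2 and ABCG4 (0.46, 0.48 and 0.51), and those closest to CA9 were RFPL4B, KLF4 and CFI (1.17, 1.19 and 1.23), which like CA9 had few reads with BEZ235. As libraries of whole cultures were sequenced, fewer cells with a transcript and less of it per cell cannot be told apart in any of these results.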

How the data were processed

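RNA of TC-71 cells was sequenced in 3 BEZ235 and 3 DMSO libraries. The authors deposited a normalized signal, read counts scaled per library, for each gene; per the file headers, rows are FASTDB genes with hg38 coordinates. Control columns were matched to the DMSO samples, the only controls, by number. DESeq, STAR 2.4.0, SAMtools, Picard and FastQC stand in the submitters' processing notes, without their roles; no source used here gives the counting rule or strand, so overlapping rows may share reads.

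Each column's values were whole multiples of 1 step (100% of values within 0.01), which gave the recovered reads. Rows with at least 10 normalized counts in at least 3 libraries (23923 rows) were tested with limma 3.58.1 (R 4.3.3, mean-variance trend, group as the only term, two-sided) on log2(normalized count + 1); fold changes are on that scale, where the pseudocount affects low genes most. The count tests edgeR 4.0.16 and DESeq2 1.42.0 on recovered reads were alternatives and called 15744 and 15706 rows, against 15863 by limma. The other alternatives were further scalings, pseudocounts and filters, a fit with no trend, a replicate block, and leaving out each library. The script was tested on simulated data. Limits of 3 reads and intervals cover counting error or the spread between libraries only.

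The members and gene lists were chosen with earlier results of these data known. Named genes are all members, up to 4 genes of each list per direction with the smallest adjusted p, the one with the largest change, and 10 genes given whatever their values; other list and marker genes given with values (CREBBP, CUL2, RBX1, ELOB, ARNT2, FLT1, KDR, CD68, KRT8, COL3A1) were chosen after their values were seen. Cores of HIF binding sites were searched on both strands in RefSeq windows of 250 bases upstream.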

Additional observations from a re-analysis of the deposited data

How the results depend on the processing

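Of 50 genes examined by name under 17 alternatives, with 850 values in all, 799 values kept their direction and side of the threshold, 30 calls were lost, 14 were gained and 7 values changed sign. The sign changes were in genes not called: CITED2 was -0.032 with total-count scaling and -0.0409 with quantile normalization, and ADM 0.0161 with quantile normalization. Leaving out 1 library gave -0.136 to 0.023 for ADM, above 0 without BEZ235 replicate 1, BEZ235 replicate 3 or DMSO replicate 3, and -0.189 to 0.0391 for LDHA, above 0 without BEZ235 replicate 3; the cause was not tested. The 20 calls lost among members were those of ARNT and EGLN1, so that 8 to 10 members were called. HIF1A, EPAS1, EGLN2, EGLN3, VHL, VEGFA, VEGFB and CA9 were called under every alternative. The count of called rows ran from 14775 to 16102, and from 14483 to 15898 when 1 library was left out. Without a filter 8 other carbonic anhydrases were called in place of 5, as rows with few reads then entered the test. NDRG1, CA12 and SLC2A1 were called as lower under some alternatives, and BNIP3 as higher with quantile normalization, edgeR, the replicate block and without BEZ235 replicate 3. Replicate numbers did not pair the libraries (correlations of same-numbered deviations -0.038, 0.023 and 0.044). The replicate block called 15917 rows and 9 members, ARNT having an adjusted p of 0.0573, while SLC2A1, NDRG1 and BNIP3 were called with it (0.0354, 0.0393 and 0.0223). The differences of the log2 ratios under it were -2.65, -1.61 and -2.75. With 3 libraries per group these must equal the differences without it, so they say nothing of robustness. Over same-numbered pairs, an exact two-sided sign-flip test gave p = 0.25 for each ratio, the smallest possible. Leaving out 1 library gave -2.97 to -2.46 for EPAS1 to HIF1A, -1.67 to -1.54 for EGLN3 to EGLN1 and -2.81 to -2.68 for VEGFA to VEGFB. Total-count scaling moved the median of all rows by -0.096. Depth limits CA9 and EPAS1 in BEZ235 cells, with 18 and 51 reads over 3 libraries.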
